A study of Rattus norvegicus with 6 samples.

Results

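Expression of 10 genes of bone morphogenetic protein (BMP) and activin signalling was compared between a bile duct cancer cell strain and a fibroblastic strain of the rat: the ligand genes Bmp2, Bmp4 and Inhba, the secreted antagonists Grem1 and Fst, the receptor Bmpr1a, and the target genes Id1, Id2, Id3 and Id4. They were chosen by gene symbol: every probe set of the array that the platform annotation gives 1 of these symbols was taken, which gave 17 probe sets for the 10 genes, out of 14217 genes measured. Expression arrays were run on 3 RNA samples of BDEsp-TDECC, here TDECC, a clonal cholangiocarcinoma strain, and on 3 of BDEsp-TDESM, here TDESM, a clonal fibroblastic strain that the labels describe by its overexpression of Acta2, smooth muscle actin. Both strains were isolated from tumours that grew in Fischer 344 rats after transformed rat cholangiocytes, the BDEsp cells, were placed in the bile duct. All 6 samples carry the same label of a collagen gel culture and the same treatment entry, the TGF-beta inhibitors SB 431542 and LY2157299, with no word on which cultures received them. Each strain is a single clone. No label states that the 3 RNA samples of a strain were grown separately, and p-values therefore reflect array-to-array spread that could be technical.

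BMPs and activins are secreted dimers that bind paired type I and type II receptor kinases; Bmpr1a is a type I receptor for BMP2 and BMP4. The BMP branch passes its signal through Smad1, Smad5 and Smad9, and the Id genes are among its best known direct targets in many cell types. Id proteins bind the E proteins, a family of transcription factors, and keep them off DNA. Gremlin 1, the product of Grem1, binds BMP2 and BMP4 outside the cell, and is known from fibroblasts of carcinoma stroma. Follistatin, the product of Fst, binds activins most tightly, and Inhba encodes the subunit of activin A.

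Upstream sequence of Grem1, Id1, Id2 and Id3 is shown because these genes carry contrasts described below: in the fibroblastic strain the antagonist Grem1 and the target Id3 were higher, Id2 was lower and Id1 was not called. The RefSeq promoter table (GRCr8) held 8 of the 10 members, Bmp2 and Fst being the other two. Capitals mark GGCGCC or GGAGCC on either strand, cores of response elements for the BMP-type Smads. Each sequence runs 5′ to 3′ and stops where the annotated gene begins, which for Id1 and Id3 lies upstream of the transcript start used by the table. Grem1 lies on the minus strand (chr3:120978320-120978569), Id1 on the plus strand (chr3:161671314-161671524), Id2 on the minus strand (chr6:47470996-47471245) and Id3 on the plus strand (chr5:153656041-153656252).
Grem1: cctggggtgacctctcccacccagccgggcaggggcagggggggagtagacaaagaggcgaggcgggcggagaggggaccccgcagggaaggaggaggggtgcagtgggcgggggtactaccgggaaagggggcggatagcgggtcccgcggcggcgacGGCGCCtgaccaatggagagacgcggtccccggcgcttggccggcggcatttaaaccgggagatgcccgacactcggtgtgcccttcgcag
Id1: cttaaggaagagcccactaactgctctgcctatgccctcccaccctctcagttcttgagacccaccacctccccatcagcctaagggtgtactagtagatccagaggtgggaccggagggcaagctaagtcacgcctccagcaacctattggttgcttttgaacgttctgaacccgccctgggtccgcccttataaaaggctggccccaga
Id2: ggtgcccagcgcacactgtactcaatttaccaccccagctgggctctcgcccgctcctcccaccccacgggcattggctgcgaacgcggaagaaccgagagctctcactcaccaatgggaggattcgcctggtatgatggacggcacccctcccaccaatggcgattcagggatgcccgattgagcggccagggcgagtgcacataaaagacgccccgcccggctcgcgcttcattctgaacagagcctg
Id3: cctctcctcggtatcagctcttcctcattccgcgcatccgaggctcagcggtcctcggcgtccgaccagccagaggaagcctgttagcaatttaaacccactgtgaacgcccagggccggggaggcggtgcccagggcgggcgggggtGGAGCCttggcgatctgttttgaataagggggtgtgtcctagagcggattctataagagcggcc

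Grem1 held 1 GGCGCC, starting 91 bases before the transcript start, and Id3 held 1 GGAGCC, starting 102 bases before it. Bmp4 held 1 GGAGCC, starting 189 bases before it, and neither core was found in the 250 bases before the transcript start of Id1, Id2, Inhba, Bmpr1a or Id4, whose window is not shown. The windows of Bmp4 and Inhba lie inside the annotated gene, before a start other than the outermost one. So 3 of the 8 windows held either core. Over 33469 promoters of the same length, 8.7% held GGCGCC, 23.0% held GGAGCC and 28.2% held either. The cores did not follow the calls over all 8 windows. Inhba and Id4 were higher in TDESM without a core, and Bmp4 was not called with 1. Sequence further upstream than 250 bases was not searched. The E-box CANNTG, the site of E proteins, was found in 4 of the 8 windows (Id1, Id2, Bmp4 and Inhba) and in 65.5% of all promoters. These matches describe the letters of the windows and say nothing of binding.

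Values below are the deposited log2 values, and a difference is TDESM minus TDECC, so that a difference of 1 is a 2-fold higher value in TDESM. The gene was read from its probe set with the highest mean, and a gene was called when limma's adjusted p over all genes was below 0.05. Array medians were 5.80 to 5.86 and maxima 14.6 to 14.8; precision is limited by having 3 arrays per strain. Within a strain, arrays correlated across genes at 0.968 to 0.975 in TDECC and at 0.995 to 0.998 in TDESM. The strains matched their labels: all 6 epithelial markers were lower and all 7 myofibroblast markers higher in TDESM, with mean levels over the list of 13.54 to 13.78 against 4.79 to 4.93 and of 4.98 to 5.50 against 12.81 to 12.90. Acta2 differed by 4.99 (SE 0.43). None of 5 leukocyte, 5 endothelial or 5 hepatocyte markers was called higher in TDESM. The endothelial marker Pecam1 was called lower (-0.37, limma adjusted p = 0.0439). Hnf4a, a hepatocyte marker, was not called, with a mean of 5.56 (SD 1.94) in TDECC and 4.16 in TDESM. Means of these 3 lists were 3.94 to 5.15 on every array, the highest being the hepatocyte list on TDECC replicate 2. Mesothelial markers did move with the strain: of 3 measured, Wt1 (5.09) and Lrrn4 (0.77) were higher and Msln (-7.02) was lower in TDESM, with list means of 7.58 to 7.82 in TDECC and 7.24 to 7.33 in TDESM, and their part in the results was not tested. Probe sets of the bacterial control transcript TrpnX, which has no rat counterpart, read 2.80 to 3.53 and served as a guide to background.

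Of the 10 members, 4 were higher in TDESM (Grem1, Inhba, Id3 and Id4), 3 were lower (Bmp2, Fst and Id2) and 3 were not called (Bmp4, Bmpr1a and Id1). The strains differ widely: limma called 42.7% of all genes, 22.1% higher and 20.6% lower in TDESM, so 7 calls among 10 genes are to be read against that share. The values of the strains did not overlap for the same 7 members, and for 53.6% of all genes. The median difference was 0.26 over the members and 0 over all genes. An exact two-sided permutation test of a single gene cannot go below p = 0.1 with 3 arrays against 3. Each of the 7 called genes reached that value. Any gene whose strains do not overlap reaches it, so the test adds nothing to the non-overlap.

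**Figure D1:**
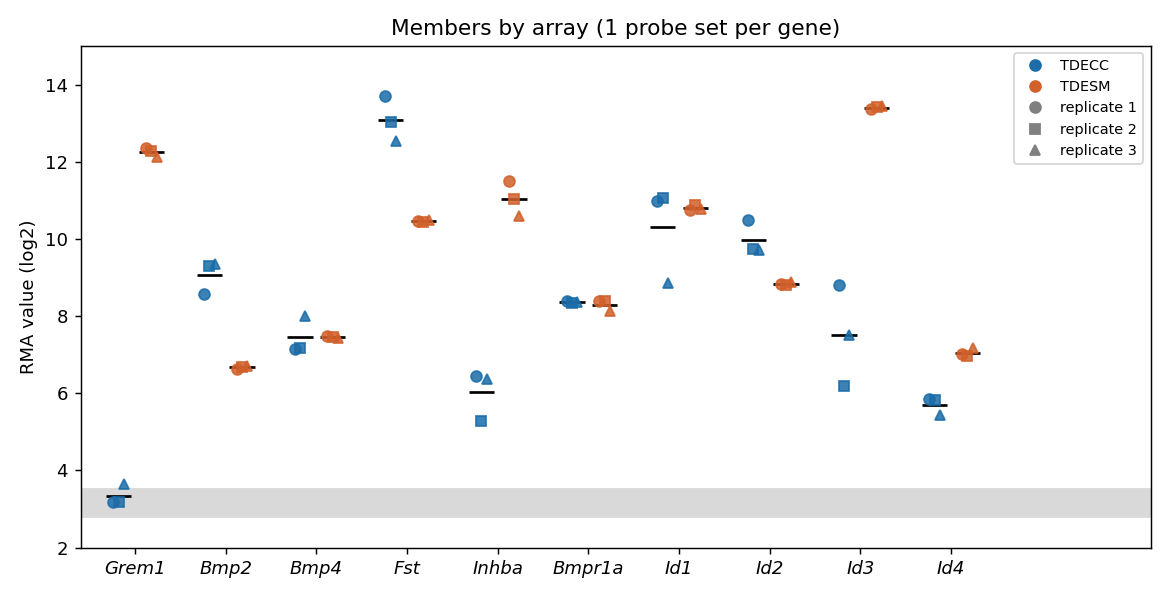
Deposited log2 value (vertical axis) of each member on each array, TDECC in blue and TDESM in orange, the shape giving the replicate and the black bar the strain mean (n = 3). The grey band is the range of the TrpnX control probe sets, 2.80 to 3.53; Grem1 in TDECC lies in or just above it, Bmpr1a is at 8.13 to 8.38 in both strains, and Id1 has 1 low TDECC array at 8.86.

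Grem1 was near the array background in the cancer cells and high in the fibroblastic cells. It read 3.19, 3.19 and 3.65 on the TDECC arrays and 12.35, 12.28 and 12.13 on the TDESM arrays. The TDECC values lie at the level of the control transcript that is not rat RNA, and no TDESM array comes near them. The difference was 8.91 (SE 0.16, limma adjusted p = 1.42e-07), a 481-fold ratio of the deposited values. Because the lower strain is near background, that ratio depends on how background was corrected. Only 1 probe set on the array is assigned to Grem1, so it has no second reading.

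Fst went the other way. It read 13.69, 13.04 and 12.54 in TDECC and 10.47, 10.45 and 10.48 in TDESM. The lowest cancer array was still above all fibroblastic arrays, which differed among themselves by 0.03 only. The difference was -2.62 (SE 0.27, limma adjusted p = 0.000279), a ratio of 6.16. Its other probe set gave -2.10 (SE 0.22), with TDECC at 12.69, 12.03 and 11.86 and TDESM at 10.05 to 10.12, the same order of the 3 cancer arrays. So the 2 secreted antagonists among the members differed in opposite directions between the strains, with Fst well above background in both.

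Inhba, the activin A subunit, was higher in TDESM. Its values were 6.46, 5.28 and 6.38 in TDECC and 11.51, 11.03 and 10.59 in TDESM, a difference of 5.00 (SE 0.37, limma adjusted p = 4.69e-05). Here the fibroblastic arrays also spread, over 0.92, and 0.51% of all genes had a TDESM SD at least as large. The other probe set read 3.85, 3.33 and 3.65 in TDECC and 12.31, 12.25 and 11.86 in TDESM. That difference was 8.53 (SE 0.19, limma adjusted p over probe sets = 2.46e-07), in the same direction. Its TDECC values lie in or just above the TrpnX control range, so the size of that difference depends on the background correction, as does the 6.77 from the mean of both probe sets.

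Bmp2, a BMP ligand, was higher in the cancer cells. It read 8.58, 9.29 and 9.34 in TDECC against 6.63, 6.69 and 6.71 in TDESM, a difference of -2.39 (SE 0.21, limma adjusted p = 0.000131). The groups lie well apart, replicate 1 being the lowest of the cancer arrays. A second probe set gave -3.13 (SE 0.19), with TDECC at 8.53, 8.99 and 9.06 and TDESM at 5.85, 5.49 and 5.86.

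Bmp4, the closely related ligand, showed no call. It read 7.16, 7.18 and 8.0 in TDECC and 7.48, 7.47 and 7.43 in TDESM. The fibroblastic values fall between the 2 lower cancer arrays and replicate 3, which stands 0.84 above the lowest. The difference was 0.01 with a 95% confidence interval of -0.54 to 0.57 (limma adjusted p = 0.971). True differences within that interval are compatible with these values, so equal expression is not shown. Leaving out TDECC replicate 3 gave 0.29 (limma adjusted p = 0.0799).

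Bmpr1a, the type I receptor, read 8.38, 8.35 and 8.36 in TDECC and 8.38, 8.38 and 8.13 in TDESM. Apart from TDESM replicate 3, the arrays lie within 0.03 of each other, and TDESM replicate 3 is the lowest. The difference was -0.07, with a 95% confidence interval of -0.36 to 0.22 (limma adjusted p = 0.711), the narrowest interval among the members that were not called.

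Id3 had the largest difference of the Id genes. It read 8.80, 6.20 and 7.50 in TDECC and 13.36, 13.41 and 13.44 in TDESM. The fibroblastic arrays lie within 0.08 of each other, whereas the cancer arrays span 2.60, from replicate 2 at the bottom to replicate 1 at the top. The difference was 5.90 (SE 0.58, limma adjusted p = 0.000208), or a ratio of 59.9, and it lay between 5.25 and 6.55 when each array was left out in turn.

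Id4 was higher in TDESM on all 4 of its probe sets, by amounts that differed. The probe set with the highest mean read 5.84, 5.83 and 5.45 in TDECC and 7.01, 6.97 and 7.17 in TDESM, a difference of 1.34 (SE 0.15, limma adjusted p = 0.000387). The largest difference came from a probe set at 4.03, 3.79 and 3.96 in TDECC and 7.56, 7.60 and 7.56 in TDESM, and was 3.65 (SE 0.11). The others gave 1.69 and 0.59. The last, at 3.23 to 3.80 against 4.08 to 4.21, is close to background in both strains, and its call was lost without any 1 TDESM array (limma adjusted p 0.0747 to 0.109). Centred on the poly-A controls, the main Id4 difference fell to 0.12 and was not called (limma adjusted p = 0.757).

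Id2 was lower in TDESM. It read 10.49, 9.74 and 9.72 in TDECC and 8.84, 8.81 and 8.88 in TDESM, so the groups are separated by less than 1 unit at their nearest. The difference was -1.14 (SE 0.22, limma adjusted p = 0.00515), and the second probe set gave -0.94 (SE 0.14).

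Id1 was not called, and a single array sets its estimate. It read 10.99, 11.06 and 8.86 in TDECC and 10.75, 10.88 and 10.78 in TDESM. The other cancer arrays lie just above the fibroblastic ones and replicate 3 lies 2.20 below the highest. The difference was 0.50, with a 95% confidence interval of -0.83 to 1.83 (limma adjusted p = 0.528); without TDECC replicate 3 the sign turned, to -0.22 (limma adjusted p = 0.180). That array also stood apart in some control transcripts: the 3′ minus 5′ signal of thr was 1.45 there, against 2.98 and 3.06 on the other TDECC arrays and 2.27 to 2.62 on the TDESM arrays. For dap the same measure was 2.22 there, against 3.3 and 3.1 in TDECC and 2.76 to 3.09 in TDESM. For phe it was 0.47, against 0.9 and 0.78 in TDECC and 0.73 to 0.88 in TDESM. For beta-actin it was 0.77, below 1.18 and 1.46 in TDECC but inside the TDESM range of 0.72 to 0.99. For lys, 1.62 also lay inside the TDESM range of 1.31 to 1.95, and GAPDH read 0.01 to 0.08 on all arrays. The part of these signal differences in the Id1, Bmp4 and Fst values of that array was not tested.

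**Figure D2:**
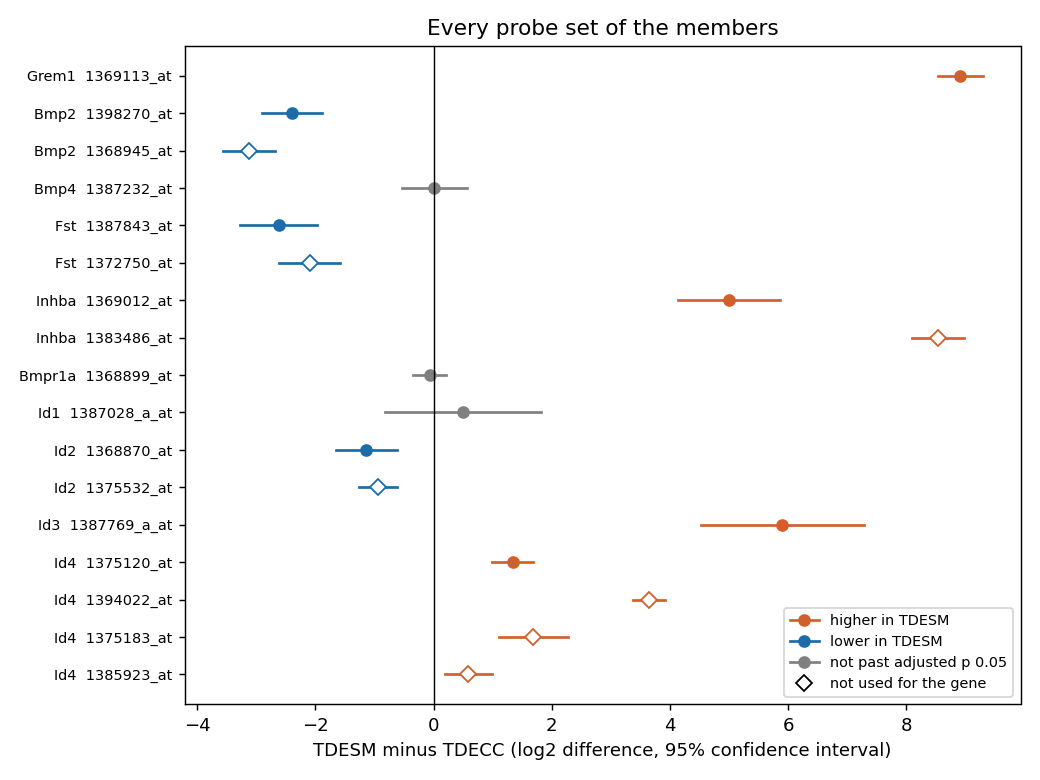
TDESM minus TDECC difference (log2, horizontal axis) of all 17 probe sets of the members with 95% confidence intervals from the fit over all probe sets, n = 3 arrays per strain. Filled points are the probe sets used for the gene; both Inhba probe sets (5.00 and 8.53) and all 4 Id4 probe sets (0.59 to 3.65) lie to the right of 0, and both probe sets of Bmp2, Fst and Id2 lie to the left.

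Counted by probe set, 8 of the 17 were higher and 6 lower in TDESM, where limma called 36.9% of all probe sets, 17.9% higher and 19.0% lower. The 3 probe sets not called were the single ones of Bmp4, Bmpr1a and Id1. No member with several probe sets had probe sets of opposite sign in the deposited values; centred on the poly-A controls the dimmest Id4 probe set turned to -0.63.

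The change of 1 member relative to another on the same array does not move when an array is rescaled, and was computed for 8 pairs picked after their values were seen. Inhba rose relative to Fst, the antagonist of its product, by 7.63 between the strains, with SDs of the within-array difference of 0.82 in TDECC and 0.47 in TDESM (n = 3 each). Grem1 rose relative to its targets Bmp2 and Bmp4 by 11.3 and 8.90. Bmp2 fell by 2.41 relative to Bmp4. Among the Id genes, Id3 rose by 7.04 and Id4 by 2.48 relative to Id2, with TDECC SDs of 0.95 and 0.37. Id3 rose by 5.40 relative to Id1 (TDECC SD 1.83), and by 6.12 without TDECC replicate 3. Id1 rose by 1.64 relative to Id2 (TDECC SD 1.10), and by 1.05 without that array, a check added after the values were seen. In each of these 8 pairs the arrays of the strains did not overlap, the smallest gap being 0.58 for Id1 relative to Id2. The share over all pairs of genes was not computed, and single genes did not overlap for 53.6% of all genes. With pairs picked by their values, that count is description only. Grem1 read 3.19 to 3.65 in TDECC, near background, so the size of its 2 shifts depends on the background correction. Such a ratio shows unequal change and does not say which of the pair changed.

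The members varied more among the cancer arrays. The SD was larger in TDECC for 9 of 10 members, Bmpr1a being the exception, and for 76.2% of all genes. The median SD of the members was 0.46 in TDECC and 0.06 in TDESM, against 0.24 and 0.12 over all genes. Id3 (SD 1.30) and Id1 (SD 1.25) spread most: 1.41% and 1.58% of all genes had a TDECC SD at least as large. The cancer arrays did not order these genes alike, since Id1 was lowest on replicate 3, Id3 on replicate 2, and Id2 was highest on replicate 1.

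**Figure D3:**
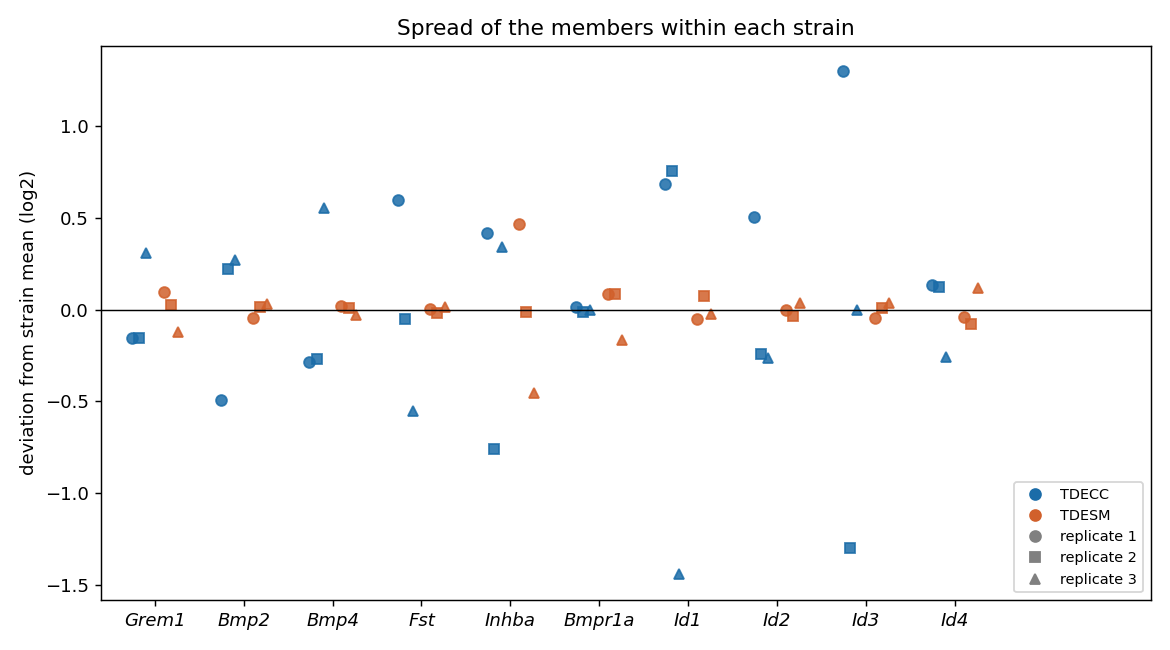
Deviation of each array from its strain mean (log2, vertical axis) for the 10 members, TDECC in blue and TDESM in orange, the shape giving the replicate. TDECC replicate 3 is the low Id1 array, and TDECC replicates 1 and 2 are the high and low Id3 arrays; TDESM arrays stay close to 0 except for Inhba, which spans 0.92.

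The genes whose pattern over the 6 arrays was nearest to a member were found by the root mean square distance between values centred on each gene's mean, over all other genes measured. For Grem1 they were Col5a2 (0.11), Igfbp7 (0.20) and Mtap (0.21). For Fst they were Rbp2, Cxcr3 and Rabggta, each at 0.12. For Id3 they were Slc66a3 (0.14), Cald1 (0.17) and Bnc2 (0.41). Cald1 read 8.29, 5.94 and 6.85 on the TDECC arrays, the same order as Id3. Its choice by nearness to Id3 favours a shared order, so that order is description only. Of the 7 myofibroblast markers, 3 were highest on TDECC replicate 1 and 3 were lowest on replicate 2. The same shares over all genes were not computed, so these counts are not read as a match to Id3. The list means were 5.50, 4.98 and 5.27 on TDECC replicates 1 to 3. On TDECC replicates 1 to 3, Tagln read 6.15, 4.65 and 5.51, Vim 8.57, 7.65 and 7.61, and Pdgfrb 4.6, 3.81 and 4.03. Col1a1 read 5.02, 4.18 and 5.04 and Acta2 6.02, 6.1 and 7.71. Col1a2 read 3.9, 4.07 and 3.11 and Thy1 4.22, 4.41 and 3.9. Grem1 read 3.19, 3.19 and 3.65. The part of such markers in the Id3 spread was not tested.

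Beyond the members, 72 of 92 listed genes of BMP and activin signalling were measured. In TDESM 26 of them were higher and 11 were lower, and the median difference was 0.10, where 22.1% of all genes were higher and 20.6% lower. The 11 lower became 4 centred on housekeeping genes, 5 without TDESM replicate 1, 7 without TDESM replicate 2 or 3 and 6 with the replicate block. Centred on the poly-A controls, 12 were higher and 47 lower. The lists were written with earlier results of these data known, so the counts describe them only.

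Of 17 other ligands, 2 were higher, 3 lower and 12 not called, beside 22.1% and 20.6% of all genes. Centred on housekeeping genes 5 were higher and 2 lower, and centred on the poly-A controls 2 and 15. Gdf15, a stress-induced member of the wider family, read 9.99, 9.90 and 10.70 in TDECC and 4.46, 4.76 and 4.93 in TDESM, a difference of -5.48 (SE 0.24). Bmp3, which opposes other BMPs in bone, differed by -2.65 and Inha, the inhibin alpha subunit, by -0.75; the Inha call was lost when arrays were centred on housekeeping genes (limma adjusted p = 0.0578). Gdf11 differed by 4.86, and by 2.67 when its probe sets were averaged. Inhbb, the activin B subunit, differed by 2.21, the same direction as Inhba. Bmp5, Bmp6 and Bmp7 were not called, with means of 3.30, 5.82 and 4.69 in TDECC and 3.58, 5.92 and 4.63 in TDESM; averaged over its 4 probe sets, Bmp6 was called higher, by 0.42 (limma adjusted p = 0.0229).

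Of 13 other receptors and co-receptors, 4 were higher and 5 lower, beside the same shares of all genes, 22.1% and 20.6%. The counts were 4 and 2 centred on housekeeping genes or without TDESM replicate 1, and 2 and 9 centred on the poly-A controls. Bambi, a receptor-like protein without a kinase that dampens BMP and TGF-beta signalling, read 4.42, 4.85 and 5.20 in TDECC and 9.08, 9.04 and 9.33 in TDESM, a difference of 4.33 (SE 0.21). Acvr1, a BMP type I receptor, differed by 2.02 and Rgmb, a BMP co-receptor, by 1.40, a call that did not hold with the poly-A centring (0.18, limma adjusted p = 0.648). The activin type II receptors Acvr2b and Acvr2a differed by -1.01 and -0.86 and the type I receptor Acvr1c by -0.91; the Acvr2a call was lost without TDESM replicate 1 (limma adjusted p = 0.0529) or centred on housekeeping genes (limma adjusted p = 0.0667). Bmpr2, the BMP type II receptor, was not called and read 8.16 to 9.12 in TDECC and 8.40 to 8.88 in TDESM.

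Among 15 other secreted antagonists and modulators, TDESM was called higher for 8 and lower for none, the median difference being 0.45. Over all genes these shares were 22.1% and 20.6%. The 8 became 6 with the replicate block or without TDESM replicate 2 or 3. They became 7 without TDESM replicate 1 or TDECC replicate 3. Fstl1, a follistatin-related protein, read 4.75, 4.18 and 4.29 in TDECC and 13.45, 13.49 and 13.51 in TDESM, a difference of 9.08 (SE 0.17). Bmper, which binds BMPs, read 3.22, 3.08 and 3.36 in TDECC and 9.86, 9.80 and 9.66 in TDESM, a difference of 6.55 (SE 0.13), and Nbl1, a relative of gremlin, differed by 2.94. For Fstl1 and Bmper, as for Grem1, the cancer arrays were low and the fibroblastic arrays high with no overlap. The TDECC values of Bmper lie in the TrpnX control range, so the size of its difference depends on the background correction. Nog, which encodes noggin, read 2.68 to 2.88 in TDECC and 2.86 to 2.99 in TDESM, at or just below the range of the TrpnX control. Rescaling by cyclic loess, or by housekeeping genes, left 8 of these genes higher and 0 lower. Of the settings run, the poly-A centring alone gave lower calls, with 4 of these genes higher and 8 lower.

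Of 11 Smads and regulators 4 were higher and 2 lower, and 2 of these calls reached 2-fold; of all genes 22.1% were higher and 20.6% lower. Centred on the poly-A controls none of the list was higher and 7 were lower. Smad2, of the activin and TGF-beta branch, differed by 1.25 and Smurf2, a ubiquitin ligase of the pathway, by 1.01. Both calls were lost with the poly-A centring, at 0.03 (limma adjusted p = 0.935) and -0.21 (limma adjusted p = 0.594). Of the BMP branch, Smad1 differed by -0.48 and Smad5 by 0.81, while Smad9 and Smad4 were not called. With the replicate block the calls of Smad1 (limma adjusted p = 0.0754), Smad5 (limma adjusted p = 0.0508) and the inhibitory Smad6 (-0.47, limma adjusted p = 0.0555) were lost, and the list counted 2 higher and 0 lower. Averaged over their probe sets, Smad5 differed by 0.07 and Smad6 by -0.07, neither of them called. Smad1, averaged in the same way, differed by -0.81 and stayed called lower (limma adjusted p = 0.00144).

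Of 9 other target genes, 4 were higher and none was lower in TDESM in the deposited values; the shares over all genes were 22.1% and 20.6%. Centred on the poly-A controls 2 were higher and 5 lower. Hey1 read 4.17, 3.26 and 4.81 in TDECC and 7.17, 7.22 and 7.49 in TDESM, a difference of 3.21 (SE 0.37). The homeobox gene Dlx5 differed by 2.13 and Atoh8 by 1.28, the latter call being lost with the poly-A centring (0.06, limma adjusted p = 0.882). Of the E proteins that Id proteins bind, Tcf4 differed by 2.77, and by 4.12 when its probe sets were averaged. Tcf3 differed by 0.61; that call did not hold under the replicate block (limma adjusted p = 0.0530), nor without any TDESM array or TDECC replicate 2 or 3 (limma adjusted p 0.0573 to 0.0942). Tcf12 was not called. Of 4 proteases that cleave ligand precursors or chordin, Pcsk6 differed by 4.20, Bmp1 by 1.38 and Furin by -0.49. The Bmp1 call was lost without any 1 TDESM array (limma adjusted p 0.0686 to 0.0756) and with the poly-A centring (0.16, limma adjusted p = 0.686), and the Furin call without TDESM replicate 1 (limma adjusted p = 0.0642) or with the replicate block (limma adjusted p = 0.0549).

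**Figure D4:**
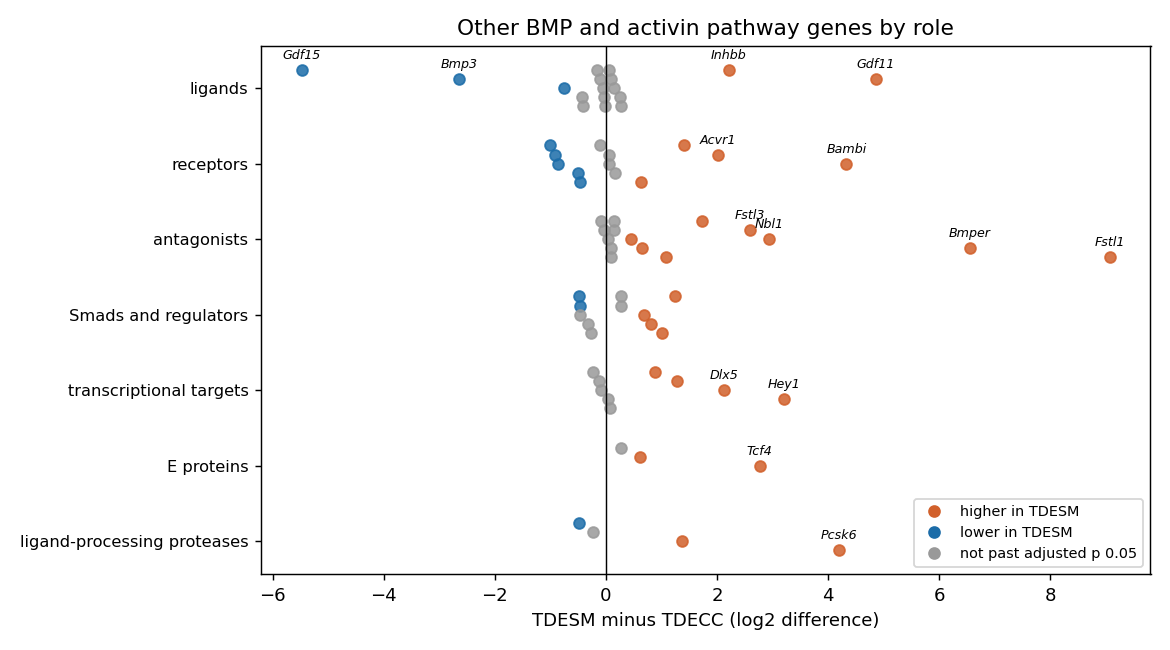
TDESM minus TDECC difference (log2, horizontal axis) of the 72 other measured pathway genes, 1 point per gene, in rows by role, coloured by limma's call (n = 3 arrays per strain); genes that differ by 2 or more are named. In the antagonist row the 8 called points, all higher, run from 0.45 to 9.08, whereas ligands and receptors lie on both sides of 0.

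Directions given so far take the deposited scaling as it stands, in which the median gene does not differ. Centring each array on the added poly-A control transcripts moved the median gene by -1.22. It split all calls into 898 higher and 10873 lower, against 3135 and 2930 in the deposited values. Centring on housekeeping genes moved the median by 0.21. Calls and p-values under the poly-A centring, here and above, are not reliable as tests. A single offset per array is taken from every gene, so all genes share its error, which the fit does not allow for. Grem1 then had a limma adjusted p of 6.12e-95 with 3 arrays per strain. Counts under that centring therefore describe only the shift. Centred on the poly-A controls, Grem1 differed by 7.69, Inhba by 3.78 and Id3 by 4.68, still higher, and Bmp2 by -3.61, Fst by -3.84 and Id2 by -2.36, still lower. Bmp4 and Bmpr1a then differed by -1.21 and -1.29 and were called lower, and Id1 differed by -0.72. Of the 10 members, 3 were then higher and 5 lower.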

How the data were processed

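RNA of 3 TDECC and 3 TDESM samples was measured on rat Affymetrix arrays, grouped and numbered by sample title. Per the submitters' processing notes the deposited log2 values come from RMA, whose version the sources used here do not give. They carry no detection calls, so no gene was called absent. In R 4.3.3, controls were set aside (57 of 31099 probe sets), leaving 31042; 20826 had 1 symbol in the platform annotation, 436 several and 9780 were not listed. For each of 14217 genes the probe set of highest average level was used. Limma 3.58.1 (lmFit, eBayes) gave two-sided tests of TDESM minus TDECC, called at 0.05 after Benjamini-Hochberg adjustment across genes, and again over all probe sets, with no low-value filter and no replicate block. On simulated data with 14217 genes, 47% of genes with a log2 change of 1, and 91% with a change of 2, were recovered. The simulation changed 200 genes and gave both strains the same SD for a gene. In the data 42.7% of genes were called and the strains differ in spread, so these rates need not hold here. Members, lists and pairs were chosen with earlier results of these data known; named genes were the members, up to 3 per list and direction with the largest called, non-overlapping difference, and the 3 nearest genes to Grem1, Fst and Id3, plus a few well-known genes added after their values were seen (Bmp5, Bmp6, Bmp7, Bmpr2, Nog, Smad4, Smad9 and Tcf12). Samples of equal number did not deviate together (correlations -0.07, 0.02 and -0.14, against -0.14 to 0.15 for unequal numbers). With 3 arrays per strain, this check cannot exclude shared handling by number. Alternatives were cyclic loess, 3 centrings, dropping the 33.3% of genes that were dimmest, averaging probe sets, trend and robust eBayes, array weights, the replicate block, each array left out and a minimum difference of 1. Upstream sequence came from RefSeq (GRCr8).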

Additional observations from a re-analysis of the deposited data

How the results depend on the processing

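The 4 higher and 3 lower member genes were called in the same numbers under every alternative run except centring on the poly-A controls, which gave 3 higher and 5 lower, and 5 of 17 probe sets higher in place of 8. Signs of members that were not called turned under some settings, and the cause was not tested. Bmp4 gave -1.21 centred on the poly-A controls and -0.13 to 0.29 leaving out each array in turn. Bmpr1a gave 0.14 centred on housekeeping genes and -0.11 to 0.02 leaving out each array. Id1 gave -0.72 centred on the poly-A controls and -0.22 to 0.88 leaving out each array. Centred on those controls, Smad5 (-0.41), Smurf2 (-0.21), Tcf3 (-0.61) and 1 Id4 probe set (-0.63) also changed sign. That centring lowers every difference by the same amount, 1.22. Its calls are not reliable as tests, since all genes share the error of a single offset per array. Of 72 pathway genes the poly-A centring left 12 higher and 47 lower, against 26 and 11. The 11 lower became 4 centred on housekeeping genes, 6 with the replicate block and 3 with a minimum difference of 1, and 5 to 10 leaving out each array (5 without TDESM replicate 1, and 7 without TDESM replicate 2 or 3). The replicate block changed no member call (4 higher, 3 lower). Acta2 stayed called in every setting. With 3 arrays per strain, intervals of members that were not called span up to -0.83 to 1.83 (Id1), and values near background bound no true ratio.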
